A study of Xenopus laevis with 3 samples.

Results

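Genes of lipid, sterol and fatty acid metabolism were examined in the inner ear of juvenile Xenopus laevis, an allotetraploid frog whose genes often persist as a pair of homeologs named L and S. Members were probe sets (Xl-PSIDs) with exactly 1 gene symbol whose symbol, after removal of the homeolog suffix, starts with the letters of a lipid gene family, such as hmgc, fdps, cyp51, insig, apo, fabp, acsl, acad, elovl, plin or ptgs. Selection used the symbols alone and no measured value. It gave 88 of the 32539 Xl-PSIDs on the array besides controls, and these stood for 49 of 9240 named genes. Of the 49, 3 were matched by their letters only: apobec2 encodes a relative of cytidine deaminases, and apoo and apool encode subunits of the complex that shapes mitochondrial cristae.

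Whole inner ears of post metamorphic animals about 3 months old were pooled for each replicate, with 5, 5 and 6 animals and mean weights of 9, 9.6 and 9.6 g in replicates 1, 2 and 3. No agent or genetic change was named for any of them, and the 3 arrays form a single group, so no comparison between stages was made. A pool holds all cell types of the organ, and fewer cells of a type cannot be told apart from less RNA per cell. Values are log2 GCRMA intensities in arbitrary units, in which unexpressed transcripts lie at a floor near 2, and levels of different Xl-PSIDs were not ranked because probes differ in their response. Detection required that the mean of an Xl-PSID be 4 or more, which is the minimum the study used for a raised transcript, and means are given ± SD over n = 3 arrays. Pools were described by range, with 1.5 on the log2 scale as the minimum for a wide one, because a single array of each pool allows no test between pools.

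Array medians were between 7.49 and 7.57, and no columns were identical. Marker lists of cell types were drawn up with earlier results of these data known. The hair cell genes measured, myo6, ush1c and calb1, were all detected. Neuron markers were unevenly represented, with 14 of 15 detected Xl-PSIDs highest on replicate 1 and 14 lowest on replicate 3, and skeletal muscle markers were highest on replicate 3 for 14 of 18. Signal at the 5′ end of both control transcripts examined, relative to the 3′ end, was weakest on replicate 3. For ef1a it was -3.87 on the log2 scale, against -3.13 and -3 on replicates 1 and 2. The RNA was amplified before hybridisation, so this is not a measure of RNA integrity alone. The authors assessed integrity on a Bioanalyzer and report that all replicates reached their minimum integrity number.

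As background, animal cells make cholesterol from acetyl-CoA through mevalonate, farnesyl diphosphate, squalene and lanosterol. The sterol sensors Insig and Scap hold the transcription factor SREBP in the endoplasmic reticulum while sterol is plentiful and release it when sterol falls. Fatty acids are desaturated and elongated in the same membranes, bound in the cytosol by small carrier proteins, stored in droplets coated with perilipins, or burned in mitochondria after transfer to carnitine. In the inner ear, as in other neural tissue, myelin holds much cholesterol, and nerve tissue in mammals makes most of its own sterol because plasma lipoproteins reach it poorly.

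Most lipid genes were detected in the juvenile inner ear. Of the 88 Xl-PSIDs 67 reached the minimum, as did 40 of the 49 genes by their Xl-PSID of highest mean. Among all Xl-PSIDs 64.4% were detected, among those with 1 symbol 72.8%, and among all named genes 80.2%, so these counts lay near the background and are not a result about lipid genes. The counts of single role groups below were not tested against these shares. In limma, a one-sided test against 4 with adjustment over all Xl-PSIDs passed the same 67 (62.2% over the array), and the same number were at or above 4 on each of the arrays. The members left a gap around the minimum. The lowest detected mean was 5.44, for an Xl-PSID of dhcr7.S, and the highest undetected mean was 3.36, for an Xl-PSID of acsl4.S.

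**Figure D1:**
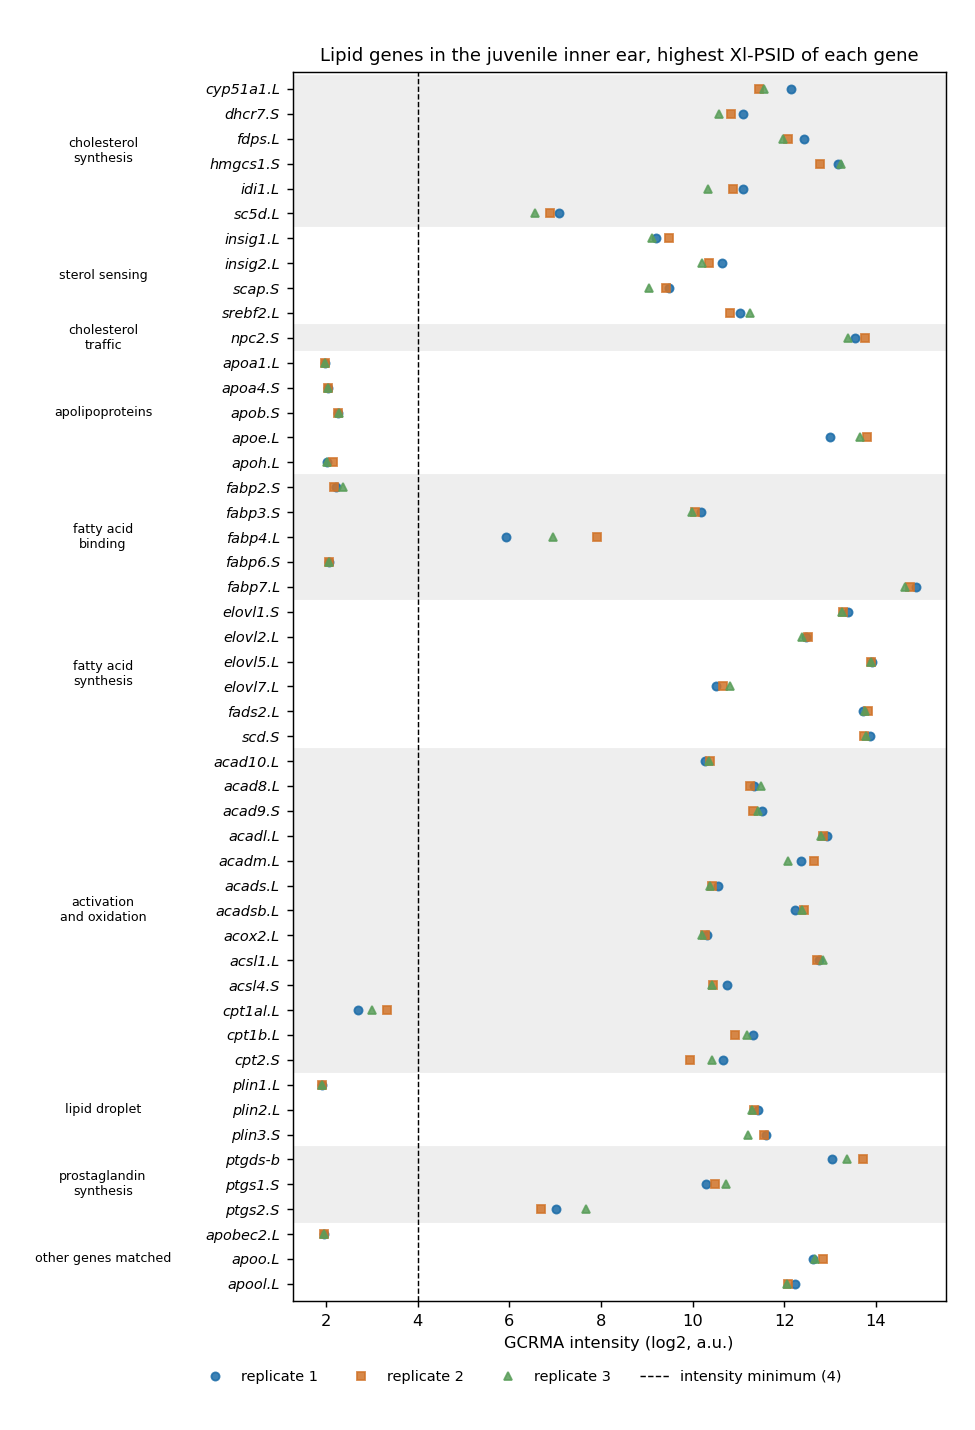
Log2 GCRMA intensity (x axis, a.u.) of the Xl-PSID of highest mean for each of 49 genes (y axis, grouped by role), with a point for each of 3 replicate pools and a dashed line at the minimum of 4. Points of 40 genes lie right of the line and those of 9 genes left of it, and fabp4.L has the widest spread.

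All 6 genes of cholesterol synthesis were detected, by 14 of 15 Xl-PSIDs, and each of the 14 passed the limma test. The shares detected were 80.2% of all named genes and 72.8% of all Xl-PSIDs with 1 symbol. Hmgcs1, the synthase that makes HMG-CoA at the head of the mevalonate route, read 13.16, 12.77 and 13.23 on replicates 1, 2 and 3 for the S homeolog. Idi1, which isomerises the first isoprenoid unit, read 11.10, 10.87 and 10.34. Fdps, which joins these units into farnesyl diphosphate, read 12.44, 12.09 and 11.96 for the L homeolog. Replicate 1 was highest for idi1 and fdps, and not for this Xl-PSID of hmgcs1.

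Later steps of the route gave the same picture of detection. Cyp51a1, the demethylase of lanosterol, read 12.15, 11.44 and 11.56 for L and 11.63, 11.07 and 10.78 for S. Sc5d, a sterol desaturase close to the end of the route, read 7.09, 6.88 and 6.55. Dhcr7, the reductase that completes cholesterol, read 11.11, 10.83 and 10.57 for S and 10.27, 9.95 and 9.83 for L. Replicate 1 was the highest array for each of these Xl-PSIDs. A second dhcr7.S Xl-PSID read 5.75, 5.76 and 4.82 (limma, adjusted p = 0.0168), and without replicate 1 or without replicate 2 it no longer passed (adjusted p = 0.0813 and 0.0768), both pairs of arrays that keep the low value of replicate 3.

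The sensors that govern this route were detected for all 4 genes, beside 80.2% of all named genes. Srebf2, which encodes the SREBP that drives sterol genes, was at 11.03 ± 0.21 on its Xl-PSID of highest mean, and scap, its escort, at 9.32 ± 0.24. The retention proteins insig1 (9.27 ± 0.19 for L and 8.03 ± 0.06 for S) and insig2 (10.40 ± 0.22) were also detected. Their ranges were between 0.12 and 0.56 on the log2 scale over 6 detected Xl-PSIDs, so that no array stood apart by the minimum of 1.5. Npc2, the lysosomal protein that passes cholesterol out of digested lipoproteins, was detected for both homeologs, at 13.54, 13.76 and 13.38 for S and 10.96, 11.76 and 10.78 for L. Replicate 2 was highest for both.

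Apolipoproteins split into 1 detected gene and 4 at the floor, beside 80.2% of all named genes detected. Apoe, the lipid carrier that glia secrete in mammals, read 12.99, 13.81 and 13.65 on one Xl-PSID and 9.22, 9.63 and 9.31 on another, with replicate 1 lowest and replicate 2 highest on both. The plasma apolipoproteins of liver and intestine were not detected. Apoa1 was at 1.97 ± 0.00 (L) and 1.95 ± 0.00 (S), apoa4 at 1.97 ± 0.00 and 2.04 ± 0.00, and apob, the backbone of chylomicrons and very low density lipoproteins, between 1.90 and 2.27 over 3 Xl-PSIDs. Apoh, a plasma glycoprotein, was at 2.07 ± 0.07.

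Markers of the organs that make these carriers were mostly at the floor too. For hepatocytes 3 of 10 genes were detected (tf, serpina1 and f2) and the fibrinogen genes fga, fgb and fgg, transthyretin ttr, ambp and ahsg were not, besides apoa1. For intestine 0 of 5 genes were detected. Over all named genes 80.2% were detected, and a difference from that share was not tested for either list. Apoa1 and apoa4, and the fatty acid binding proteins fabp2 and fabp6 below, are themselves entries of these lists, so the counts overlap.

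Cytosolic fatty acid binding proteins were detected for 3 of 5 genes, beside 80.2% of all named genes. Fabp7, the form known from radial glia and Schwann cell precursors in mammals, read 14.87, 14.75 and 14.63, and fabp3, the heart and muscle form, read 10.19, 10.04 and 9.98 for the S homeolog. Replicate 1 was highest and replicate 3 lowest for both, by 0.24 and 0.21 in all. The intestinal form fabp2 (1.99, 1.99 and 2.03 for L and 2.25 ± 0.11 for S) and the ileal bile acid carrier fabp6 (2.06 ± 0.00) were not detected.

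Fabp4, the form known from adipocytes, macrophages and endothelium in mammals, was the only one of the 49 genes with a wide range between pools. It read 5.93, 7.91 and 6.96, a range of 1.98, with replicate 1 lowest and replicate 2 highest. It passed the limma test (adjusted p = 0.0131), with an adjusted p of 0.0914 without replicate 3. The range of 1.5 was reached by 1 of 88 lipid Xl-PSIDs against 2.36% of all Xl-PSIDs, which is near the background. Adipocyte markers were detected for 2 of 7 genes, beside 80.2% of all named genes. The 2 were fabp4 itself and the droplet protein cidec, which read 6.89, 6.99 and 6.86 for L and was at 2.17 ± 0.00 for S. Adiponectin adipoq, leptin lep, perilipin plin1, lipe and pparg lay below the minimum. The 3 detected Xl-PSIDs of pigment cell markers were also lowest on replicate 1 and highest on replicate 2, with means of 10.995, 11.77 and 11.54 for replicates 1, 2 and 3. Their part in the fabp4 values was not tested.

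**Figure D2:**
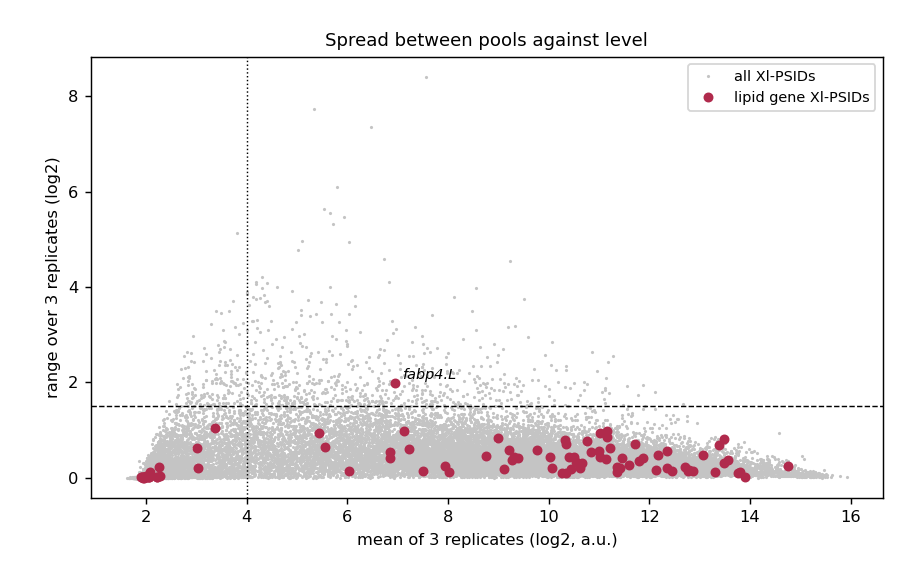
Range over 3 replicates (y axis, log2) against the mean (x axis, log2 a.u.) for all 32539 Xl-PSIDs in grey and the 88 lipid gene Xl-PSIDs in red, with lines at a range of 1.5 and a mean of 4. One red point, fabp4.L, lies above a range of 1.5.

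Enzymes that lengthen and desaturate fatty acids were detected for all 6 genes, beside 80.2% of all named genes, and their values differed little between pools. Scd, the stearoyl-CoA desaturase, was at 13.79 ± 0.06 for S and 12.79 ± 0.09 for L, and fads2, a desaturase of polyunsaturated fatty acids, at 13.77 ± 0.05 for L. The elongases elovl1 (13.31 ± 0.06 for S), elovl2 (12.46 ± 0.07), elovl5 (13.90 ± 0.01 for L) and elovl7 (10.66 ± 0.16 for L) were all detected. The widest range among the 11 detected Xl-PSIDs of this group was 0.41 on the log2 scale, for a second scd.L Xl-PSID at 7.11, 6.70 and 6.75. Their median SD was 0.09, against 0.20 over all detected Xl-PSIDs and 0.21 over the detected lipid Xl-PSIDs. These sets were not matched for level, and the part of level in the lower SD was not tested.

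Activation and oxidation of fatty acids was represented by 13 genes, of which 12 were detected, beside 80.2% of all named genes. Acsl1 and acsl4, which attach fatty acids to coenzyme A, were at 12.77 ± 0.07 and 10.54 ± 0.18. Among carnitine palmitoyltransferases, which carry them into mitochondria, cpt1b, the muscle form of the outer membrane enzyme, was at 11.14 ± 0.20. The inner membrane enzyme cpt2 was at 10.34 ± 0.36 on its Xl-PSID of highest mean, where replicate 1 was highest. Another cpt2.S Xl-PSID read 5.19, 5.83 and 5.66, with replicate 1 lowest. Cpt1al, a copy with a symbol like that of the liver form, read 2.69, 3.32 and 3.00 on its higher Xl-PSID and was not detected. Cpt1b read 11.32, 10.92 and 11.18 on replicates 1, 2 and 3.

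Acyl-CoA dehydrogenases, which open each round of mitochondrial oxidation, were detected for 7 of 7 genes, beside 80.2% of all named genes. For long, medium and short chains they were acadl (12.86 ± 0.07), acadm (12.35 ± 0.28 for L and 11.60 ± 0.13 for S) and acads (10.44 ± 0.10). Acadsb (12.35 ± 0.11) and acad8 (11.36 ± 0.11), which act on branched chains from amino acids, acad9 (11.41 ± 0.11), which also helps assemble respiratory complex I, and acad10 (10.33 ± 0.05) were detected as well. Acox2, a peroxisomal oxidase, was at 10.26 ± 0.05. The median SD over the 17 detected Xl-PSIDs of activation and oxidation was 0.11.

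Droplet coats were represented by 3 genes. Plin2, found on droplets of most cell types, read 11.42, 11.35 and 11.30 on its Xl-PSID of highest mean and plin3 read 11.60, 11.54 and 11.20 for S, while plin1, the adipocyte form, was at 1.92 ± 0.00. Another plin2.L Xl-PSID read 8.95, 8.59 and 9.43, highest on replicate 3, so Xl-PSIDs of this gene differed on which array was highest.

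Prostaglandin enzymes were detected for 3 of 3 genes, beside 80.2% of all named genes. Ptgds, which makes prostaglandin D2 and is abundant in cerebrospinal fluid of mammals, read 13.04, 13.72 and 13.37 on one Xl-PSID and 7.51, 7.26 and 6.92 on another annotated to the S homeolog. The order of the pools was not the same on both. The constitutive cyclooxygenase ptgs1 read 10.29, 10.49 and 10.73. Its inducible partner ptgs2 read 7.02, 6.70 and 7.68 (limma, adjusted p = 0.00223). Replicate 3 was highest for both cyclooxygenases.

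Xl-PSIDs of the same gene were then compared for detection. Of 13 homeolog symbols with several lipid Xl-PSIDs, 4 had some above and some below the minimum (38.1% of such symbols over the array). For fdps.L, Xl2.50432.1.S2_at read 2.07, 2.06 and 2.07, while Xl2.50432.1.S2_a_at, a set with nearly the same identifier, read 12.44, 12.09 and 11.96. For srebf2.L one Xl-PSID was at 2.23 ± 0.00 while another was at 11.03 ± 0.21 and the third read 11.20, 10.64 and 11.16. For ptgs2.S one was at 1.99 ± 0.00 and the other is given above, and for acsl4.S the mean was 3.36 ± 0.52 on 1 of 4. A gene at the floor on a single Xl-PSID, such as plin1, apoh or fabp6, therefore rests on that probe set alone.

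Of 20 lipid genes with L and S Xl-PSIDs, both homeologs were detected for 14, neither for 4 (apoa1, apoa4, apob and fabp2) and only 1 for the remaining 2, against 14.5% of such genes over the array that differed. Fabp3.S was detected at 10.07 ± 0.11 and fabp3.L read 1.92 on every array. For fads2 it was the reverse, with L at 13.77 ± 0.05 and S at 3.03 ± 0.11. Each undetected homeolog was measured by 1 Xl-PSID, and whether its probes fail or its transcript is low was not tested.

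**Figure D3:**
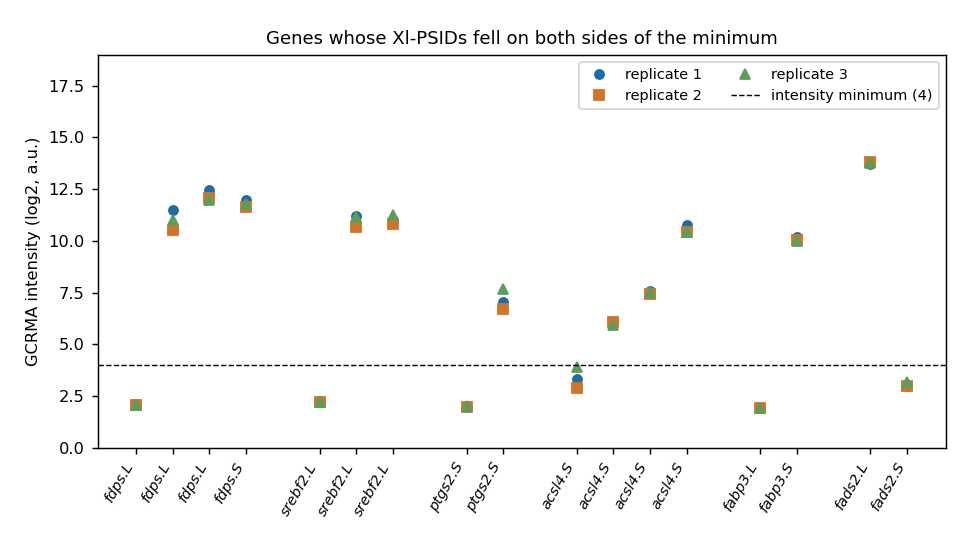
Log2 GCRMA intensity (y axis, a.u.) of every Xl-PSID (x axis, named by symbol) of 6 lipid genes, with a point for each of 3 replicates and a dashed line at the minimum of 4. Fdps.L, srebf2.L, ptgs2.S and acsl4.S each have Xl-PSIDs on both sides of the line, and fabp3 and fads2 each have a homeolog on either side.

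The last question was how lipid genes differed between the pools. Among the 67 detected Xl-PSIDs, 45 (67.2%) had a range below 0.5 on the log2 scale, against 66.0% of all detected Xl-PSIDs. Their median range was 0.40, against 0.37. The widest after fabp4 were an undetected acsl4.S Xl-PSID (3.33, 2.86 and 3.90), ptgs2.S, npc2.L, and Xl-PSIDs of fdps.L (11.48, 10.54 and 11.02), dhcr7.S, cyp51a1.S, plin2.L, apoe.L and cyp51a1.L (10.80, 10.17 and 10.002). Of these 10 widest, 4 belonged to cholesterol synthesis, which holds 15 of the 88 lipid Xl-PSIDs. Both homeologs of cyp51a1 are among the 4, and a difference from that share was not tested.

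Cholesterol synthesis genes deviated in one direction on replicate 1. Of its 14 detected Xl-PSIDs 12 were highest on replicate 1, against 34.2% of all detected Xl-PSIDs, and 9 were lowest on replicate 3, against 33.6%. Of 11284 detected Xl-PSIDs with 1 symbol 3744 were highest on replicate 1 and 4379 lowest on replicate 3. Replicate 1 was higher than replicate 2 for 13 of 14 and higher than replicate 3 for 13 of 14, against 51.6% and 51.1% over the array. The median of replicate 1 minus the mean of the others was 0.41 on the log2 scale, against 0.01 over all detected Xl-PSIDs, and on replicate 3 it was -0.35, against 0.00. These 14 Xl-PSIDs stand for 6 genes. With 1 Xl-PSID per gene, that of highest mean, 5 of 6 were highest on replicate 1, all but hmgcs1. That hmgcs1 Xl-PSID was of the S homeolog. Those of hmgcs1.L were highest on replicate 1, at 12.11, 11.69 and 11.81 and at 9.97, 9.93 and 9.39. The difference of this group on replicate 1 was seen after the values were known, each pool was measured once, and no test was made.

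**Figure D4:**
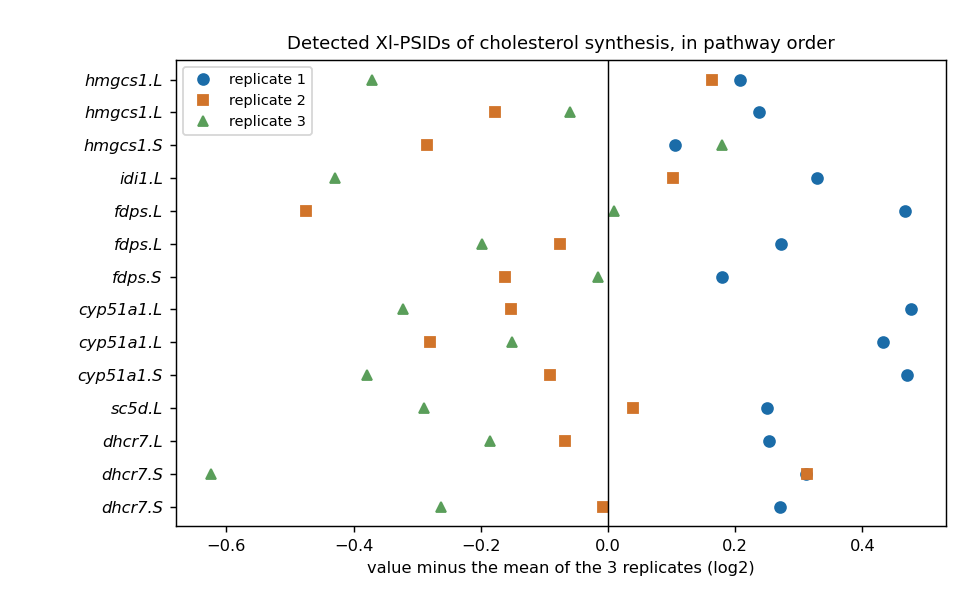
Value of each of 3 replicates minus their mean (x axis, log2) for the 14 detected Xl-PSIDs of cholesterol synthesis (y axis, in pathway order). Replicate 1 lies right of 0 for every Xl-PSID and is the highest point for 12 of 14.

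Further sterol genes that the symbol rule leaves out were examined in the same way. Of their 27 detected Xl-PSIDs 7 were highest on replicate 1 and 14 on replicate 2. The shares over all detected Xl-PSIDs were 34.2% and 32.3%, and of 11284 with 1 symbol 4232 were highest on replicate 2. For the 27 the median of replicate 1 minus the mean of the others was 0.02. Within that list are 7 genes of the synthesis route, picked after the values were seen, of which 6 were detected and 4 were highest on replicate 1. Hsd17b7, a sterol ketoreductase, read 10.16, 9.37 and 10.002, and ebp, a sterol isomerase, 10.93, 10.49 and 10.54. Pmvk, the phosphomevalonate kinase, read 12.47, 12.41 and 11.96. Nsdhl, a sterol dehydrogenase, was at 9.89 ± 0.03 and hardly differed. Acat2 and tm7sf2 were highest on replicate 2, and lbr, which doubles as a sterol reductase and a nuclear envelope receptor, was not detected (2.15 ± 0.24).

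The same median on replicate 1 was smaller in size for most other lipid groups, though not for apoe. It was 0.13 for sterol sensing, 0.18 for fatty acid binding, 0.02 for fatty acid synthesis, 0.07 for activation and oxidation, 0.16 for lipid droplets and -0.24 for prostaglandin synthesis. Apoe and npc2 were below the mean of the other arrays on replicate 1 in the median over their Xl-PSIDs (-0.49 and -0.17). Whether one group differed from another was not tested. Over all 67 detected lipid Xl-PSIDs 37 were highest on replicate 1 and 33 were lowest on replicate 3. The shares over all detected Xl-PSIDs were 34.2% and 33.6%. Of 11284 detected Xl-PSIDs with 1 symbol, as members have, 3744 were highest on replicate 1 and 4379 lowest on replicate 3. Cholesterol synthesis makes up 12 of the 37 and 9 of the 33.

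**Figure D5:**
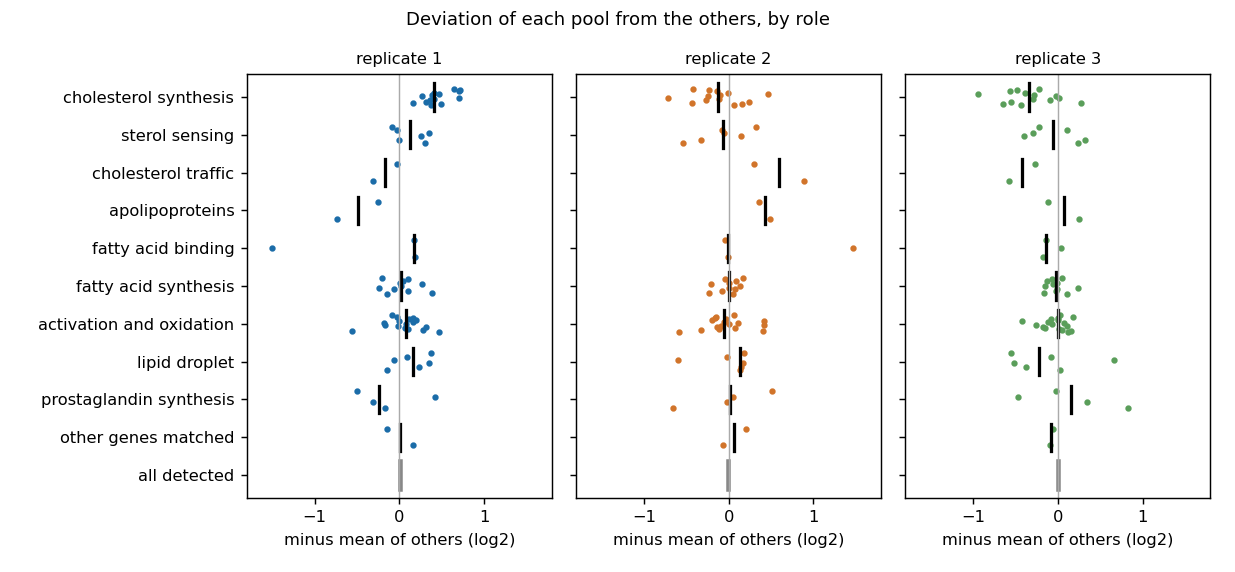
Replicate minus the mean of the other arrays (x axis, log2) for detected Xl-PSIDs in each role (y axis), a panel for each replicate, with black bars at group medians and a grey bar at the median of all detected Xl-PSIDs. Cholesterol synthesis lies at 0.41 on replicate 1 and -0.35 on replicate 3, and fatty acid synthesis near 0 on each.

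Genes on the marker lists, which were drawn up with earlier results of these data known, also differed between the pools. The mean over 15 detected neuron Xl-PSIDs was 10.43, 9.35 and 8.62 on replicates 1, 2 and 3. Of 10 neuron genes 9 were detected and syt1 was not, beside 80.2% of all named genes. The limma test passed 8 of the 9. It did not pass syn1, which read 5.70, 3.57 and 3.10 (limma, adjusted p = 0.680). For Schwann cells, which make myelin, 3 of 4 genes were detected and the myelin regulator egr2 was not, and the mean over 6 Xl-PSIDs was 13.54, 13.47 and 13.13, with 3 highest on replicate 1 and 5 lowest on replicate 3. All 4 hair cell Xl-PSIDs were highest on replicate 1, with means of 10.74, 9.80 and 9.56. Most of the difference in these means came from calb1, which read 9.35, 7.58 and 6.96 for L and 8.86, 7.58 and 7.07 for S. Myo6 read 12.94, 12.50 and 12.73, and ush1c 11.82, 11.53 and 11.49. The hepatocyte list was mostly at the floor, with 3 of 10 genes detected (serpina1, tf and f2), beside 80.2% of all named genes. Tf was at 12.66 ± 0.05 and serpina1 at 11.13 ± 0.22 on their Xl-PSIDs of highest mean, and their cell source was not tested. Of the 5 detected Xl-PSIDs on this list 4 were highest on replicate 1 and 4 lowest on replicate 3, while f2.S read 7.39, 5.57 and 7.54. Medians of the 5 for replicate 1 and for replicate 3 minus the mean of the others were 0.37 and -0.36. For cholesterol synthesis these were 0.41 and -0.35. The same medians were 1.32 and -1.11 for neurons, 0.93 and -0.67 for hair cells, and 0.18 and -0.25 for Schwann cells. All 6 detected skin Xl-PSIDs were lowest on replicate 3 and highest on replicate 2, with medians of 1.48 on replicate 1 and -3.09 on replicate 3. Skeletal muscle had -0.29 and 0.85 and pigment cells -0.67 and 0.12. The relative 5′ signal of ef1a was weakest on replicate 3, as given above, and that of gapdh was -1.13, -1.04 and -1.36. The part of these markers and of the 5′ signal in the sterol values was not tested.

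Further genes of fatty acid metabolism, taken from a pathway list, were detected for 32 of 36, and the 32 passed the limma test. Over all named genes 80.2% were detected, and a difference from that share was not tested. Acly, which supplies acetyl-CoA for lipid synthesis, was at 12.84 ± 0.17, and the subunits of the mitochondrial trifunctional protein, hadha and hadhb, at 12.02 ± 0.19 and 12.25 ± 0.04. The nuclear receptors ppara (11.10 ± 0.08) and ppard (10.84 ± 0.25), which turn on oxidation genes, were detected, while pparg, the adipocyte receptor, was at 2.52 ± 0.46 and the hormone sensitive lipase lipe at 2.63 ± 0.16. Also not detected were hacd1, which acts in elongation and is known from muscle (1.85 ± 0.00), and the lipase activator abhd5 (3.29, 4 and 3.99).

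For prostaglandins 7 of 10 further genes were detected, beside 80.2% of all named genes. Hpgds, the haematopoietic prostaglandin D synthase, was at 14.33 ± 0.09 for S and 13.63 ± 0.16 for L, and pla2g4a, the phospholipase that frees arachidonic acid, at 8.18 ± 0.21. Hpgd, which breaks prostaglandins down, read 6.81, 8.35 and 7.49, a range of 1.54 with replicate 1 lowest and replicate 2 highest. The receptors ptger2 (2.15 ± 0.00) and ptger3 (1.86 ± 0.00) and the epidermal lipoxygenase alox12b (2.41 ± 0.02) were not detected.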

How the data were processed

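RNA of 3 pools of juvenile inner ears was amplified and hybridised by the authors to the Affymetrix GeneChip of this species. The authors deposited 1 log2 intensity per probe set and array, made with GCRMA in JMP Genomics 5.0, a method that models background from the sequence of each probe and brings arrays to one scale. No source used here states whether larval arrays entered that step. Scanner files and larval arrays were not used here, and precision is limited by having 3 arrays.

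Of 32635 probe sets, 96 controls were left out of counts and tests. Symbols came from the platform annotation, and 87 of 88 members bear the same symbol in a RefSeq table (Xenopus_laevis_v10.1). Members were selected by symbol, with no measured value in the rule. The rule, role groups and lists were drawn up with earlier results of these data known. Cpt1al was placed by its name after its symbol was seen. Detection was a mean of 4 or more. It was tested with limma 3.58.1 in R 4.3.3 (moderated, one-sided, mean above 4, Benjamini-Hochberg over all probe sets at 0.05). Counts were made in Python 3.11.15 with pandas 2.3.3 and numpy 2.4.6, and drawn with matplotlib 3.10.9. The pools come from separate animals. Named genes were those picked from textbook knowledge, the 10 members of widest range, genes whose probe sets differ on detection, undetected genes and other members counted in their group. Names of genes outside the rule were chosen after their values were seen. The pathway and marker lists hold sterol, fatty acid and prostaglandin genes, and markers of adipocytes, hepatocytes, intestine, Schwann cells, neurons, skeletal muscle, skin, hair cells and pigment cells. Alternatives were other minimums, another probe set per gene, fewer probe set classes, quantile normalization, another variance model and leaving out each replicate.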

Additional observations from a re-analysis of the deposited data

How the results depend on the processing

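The count of 67 detected Xl-PSIDs lay between 57 and 70 over all alternatives, and it was 67 without any one replicate. It was highest at a minimum of 3. It was lowest without Xl-PSIDs that can match several transcripts, a setting that leaves fewer members to count. The count of 40 genes lay between 34, with every Xl-PSID of a gene required, and 41. The limma test passed 66 or 67. Fabp4 alone made up the count of Xl-PSIDs with a wide range, which was 0 without replicate 1 or without replicate 2 and 1 without replicate 3, and which became 2 at a difference minimum of 1 and 0 at a minimum of 2. The acsl4.S Xl-PSID at 3.36 lay above the minimum when that was set to 3 (limma, adjusted p = 0.208). The median of cholesterol synthesis on replicate 1, 0.41, was 0.54 without replicate 2 and 0.34 without replicate 3, 0.40 after quantile normalization and 0.38 without cyp51a1, settings chosen after seeing the data. No paired analysis was possible because the arrays form a single group. Having 3 arrays, 1 per pool, limits all values, and differences near the floor are compressed.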

Other observations

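Genes that take up, esterify or sense sterol, outside the symbol rule, were also examined. Of 21 further sterol genes 19 were detected, all passing the limma test, beside 80.2% of all named genes detected. The lipoprotein receptors lrp2, known as megalin (13.84 ± 0.13), lrp1 (12.61 ± 0.12) and vldlr (8.29 ± 0.25) were detected. So were lcat, which esterifies cholesterol on lipoproteins (10.28 ± 0.24), the acyltransferase soat1 (10.22 ± 0.14) and the lysosomal lipase lipa (10.39 ± 0.09), while soat2, the form known from liver and intestine, was at 1.89 ± 0.00. The oxysterol receptor nr1h2 read 7.81, 6.51 and 8.42 on one Xl-PSID, lowest on replicate 2. Another, not detected at a mean of 3.85, read 3.48, 5.18 and 2.87, highest on replicate 2. The order across the pools was thus opposite between a detected and an undetected Xl-PSID.

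Skin markers were detected for 4 of 5 genes, beside 80.2% of all named genes. The limma test passed 3 of the 4 and not xenoxin1 (limma, adjusted p = 0.306). Means over 6 detected skin Xl-PSIDs were 9.76, 9.95 and 6.81 on replicates 1, 2 and 3. The difference lay in skin gland peptides, xenoxin1 (7.49, 7.99 and 1.89), levi.2 (8.34, 8.41 and 5.25) and 3 Xl-PSIDs of xt6l, whereas the epidermal keratin krt61 read 13.20, 13.37 and 12.88. Krt12.4 was not detected.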
